A study of Mus musculus with 4 samples.

Results

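The Hox genes of mouse aorta were described from Affymetrix oligonucleotide arrays. The members were all genes whose symbol is Hox followed by a cluster letter and a paralog number, with 1 probe set per gene, the one whose mean over the 4 groups was highest. This gave 32 members of 12394 genes with a probe set of their own: 31 protein-coding Hox genes, of 39 in RefSeq, and Hoxa11os, an antisense RNA of the Hoxa cluster. Hoxb8, Hoxd3 and Hoxd4 were covered by probe sets shared with a neighbour, and the remaining Hox genes were not analysed here.

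Aortas came from female C57BL/6 mice that were 12 to 14 weeks old, 1 week after the ovaries of every animal had been removed, and were kept ex vivo for 4 h. The groups were transgenic disrupting peptide mice (DPM) with 10 nM estradiol (E2), DPM with ethanol vehicle, wild-type (WT) with 10 nM E2 and WT with vehicle. DPM mice express residues 176 to 253 of estrogen receptor alpha from a CMV promoter, which drives expression in many cell types; the peptide keeps the receptor from striatin and blocks its rapid signalling to kinases. Each sample pooled 4 aortas, and by the titles the replicates number 2 in both E2 groups and 3 in both vehicle groups, but the deposited values are 1 level per group. Nothing in the labels says whether replicates were separate pools, so the p-values measure a spread that may be technical. The labels do not say which segment of the aorta was taken.

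Hox genes encode homeodomain transcription factors and lie in 4 clusters, Hoxa to Hoxd, in which genes at matching places form 13 paralog groups. In the embryo the order of the genes along a cluster follows the order of their expression along the body: low paralog numbers are switched on early and reach far forward, and high numbers mark the lower trunk, tail and distal limbs. Adult fibroblasts and vascular smooth muscle retain part of this code, and Hox proteins bind DNA together with TALE homeodomain partners of the Pbx, Meis and Pknox families.

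The tissue carried the defining markers of the aortic wall in every group. All 7 smooth muscle genes were well above background, with mean log2 levels of 11.12 in DPM with E2, 11.22 in DPM with vehicle, 11.17 in WT with E2 and 11.29 in WT with vehicle. Values at the bottom of the array pile up at a log2 level of 2.29, called the floor here, and a level within 0.05 of it counts as at the floor. Levels of different probe sets are not comparable as amounts of RNA, so each member is set only against the floor and against itself in the other groups.

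Hox signal in these aortas lay in the forward part of the Hoxa and Hoxb clusters. Hoxa3, Hoxa4, Hoxa5, Hoxb2, Hoxb3, Hoxb4 and Hoxb5 were at least 1 log2 unit above the floor in all 4 groups. These 7 are 21.9% of the 32 members, against 52.5% of all 12394 genes at the same height. Of the 8 measured members of clusters a and b with paralog numbers 2 to 5, a range chosen after the levels were seen, 7 reached that height, and the eighth, Hoxa2, stood at 2.49 to 2.64. Of the 20 measured members with paralog numbers 6 to 13, 0 reached it in any group, and 14 were at the floor in all 4 groups.

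**Figure D1:**
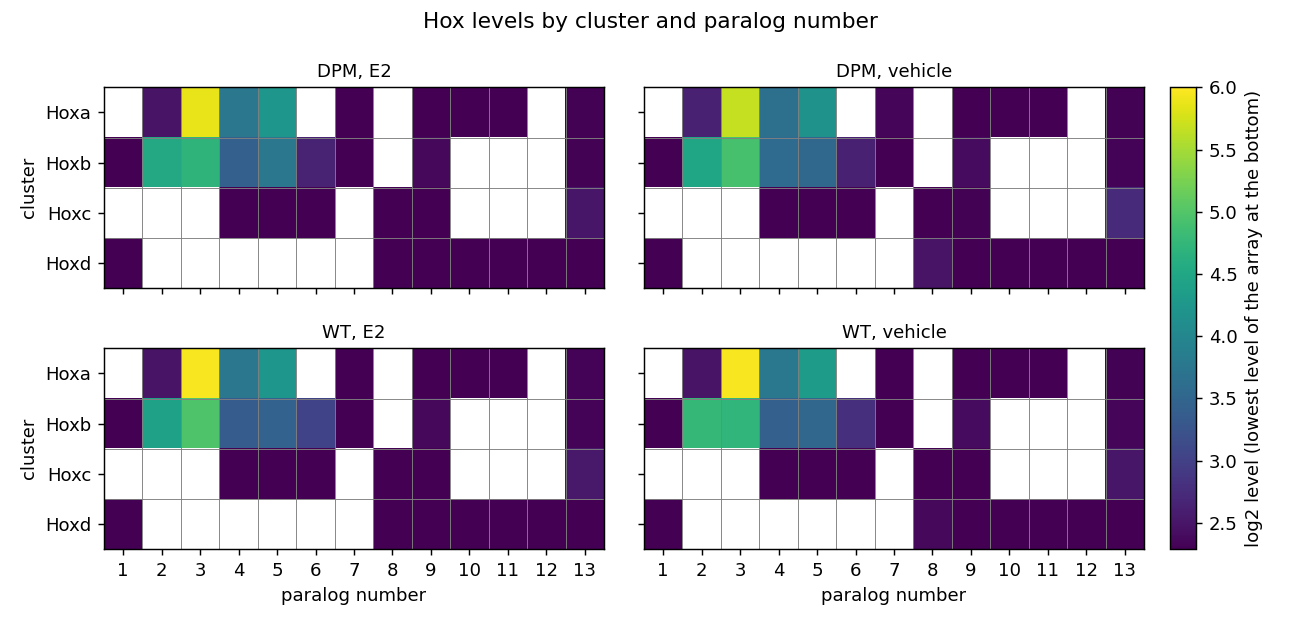
Log2 level (colour) of each measured Hox gene in the 4 groups, with the cluster on the vertical and the paralog number on the horizontal axis; white fields have no such gene or no probe set of its own. In all 4 groups the brightest fields are Hoxa3 to Hoxa5 and Hoxb2 to Hoxb5, and most fields of Hoxc, of Hoxd and of numbers from 7 upwards are at the floor.

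By cluster, 3 of 10 Hoxa members and 4 of 9 Hoxb members were at least 1 unit above the floor in all groups, against 0 of 6 Hoxc members and 0 of 7 Hoxd members. By paralog number, 5 of 9 members numbered 1 to 4, 2 of 9 numbered 5 to 8 and 0 of 14 numbered 9 to 13 reached it. Over all genes the share was 52.5%. The 55.6% of numbers 1 to 4 was close to it, and the 30% of Hoxa, 44.4% of Hoxb and 22.2% of numbers 5 to 8 were below it. Members with low numbers in the other clusters were at the floor in all groups: Hoxc4, Hoxc5 and Hoxd1, and also Hoxb1 at the front of its cluster. The probe sets shared by Hoxd3 and Hoxd4 lay between 2.29 and 2.37. A gene at the floor may still be transcribed at a level that its probes do not register.

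RefSeq promoters were available for 3 of the 7 members, Hoxa3, Hoxa5 and Hoxb4, and are printed because these genes carry the signal. Each run holds the 250 bases before the annotated start, 5′ to 3′ on the gene's strand, on build GRCm38, and capitals mark the motifs found. They are chr6:52213068-52213317 (minus strand) for Hoxa3, chr6:52204588-52204837 (minus strand) for Hoxa5 and chr11:96318017-96318266 (plus strand) for Hoxb4.
Hoxa3: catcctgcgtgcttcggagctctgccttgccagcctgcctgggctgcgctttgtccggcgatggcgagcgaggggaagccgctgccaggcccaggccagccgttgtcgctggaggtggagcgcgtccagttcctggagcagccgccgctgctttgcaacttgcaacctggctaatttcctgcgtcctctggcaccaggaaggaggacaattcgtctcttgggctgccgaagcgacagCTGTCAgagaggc
Hoxa5: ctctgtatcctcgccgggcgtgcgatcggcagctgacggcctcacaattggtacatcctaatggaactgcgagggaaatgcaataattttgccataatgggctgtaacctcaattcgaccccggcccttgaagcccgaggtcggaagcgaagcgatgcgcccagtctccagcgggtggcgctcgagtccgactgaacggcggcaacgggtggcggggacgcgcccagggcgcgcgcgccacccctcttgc
Hoxb4: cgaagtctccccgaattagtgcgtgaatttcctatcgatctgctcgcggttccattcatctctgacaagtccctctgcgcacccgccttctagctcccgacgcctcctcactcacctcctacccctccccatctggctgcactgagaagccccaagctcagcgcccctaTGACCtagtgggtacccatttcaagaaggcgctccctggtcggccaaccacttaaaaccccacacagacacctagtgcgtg

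All 3 promoters are rich in CG dinucleotides, with 18 in Hoxa3, 28 in Hoxa5 and 14 in Hoxb4, against a median of 6 over 32817 promoters of equal length. The full estrogen response element, GGTCA and TGACC with 3 bases of any kind between them, searched as all motifs here on both strands, was in 0 of the 3 and in 0.064% of all promoters. Its half-site GGTCA, which lies within that element, occurred 1 time in Hoxb4, on the opposite strand, and in 35.2% of all promoters. The Meis core TGACAG occurred 1 time in Hoxa3, also on the opposite strand, and in 15.9% of all promoters; the Pbx-Hox core TGATNNAT was in 0 of the 3 and in 7.69% of all promoters. A match describes letters and shows no binding, and the lack of one concerns these 250 bases only. In RefSeq the span of Hoxa3 holds Hoxa4, Hoxa5 and Hoxa6, and that of Hoxb3 holds Hoxb4 and the microRNA gene Mir10a. Transcripts of these neighbours therefore overlap, and the positions of the probes were not analysed here. The printed Hoxa3 run lies upstream of Hoxa5 on the same strand, at the far start of that span. Which start gives the Hoxa3 signal was not analysed here.

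Hoxb2 takes part in setting segment identity in the hindbrain. Its level was 4.53 in DPM with E2, 4.47 in DPM with vehicle, 4.41 in WT with E2 and 4.76 in WT with vehicle. WT with vehicle was the highest group and WT with E2 the lowest, which gave an E2 difference in WT of -0.35 ± 0.22. Differences are on the log2 scale, and the value after ± is the standard error, worked back from the difference and limma p in the authors' deposited table.

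Hoxa3, which shapes the derivatives of the third pharyngeal arch, among them the thymus, the parathyroid glands and the carotid artery, was the member that reached a level of 5. Its level was 5.88 in DPM with E2, 5.68 in DPM with vehicle, 5.97 in WT with E2 and 5.97 in WT with vehicle. Both DPM groups lay below both WT groups, by 0.29 or less. The suffix of its probe set marks probes that match more than 1 transcript. A further probe set of Hoxa3 stood lower on its own scale, at 3.16 in DPM with E2, 3.17 in DPM with vehicle, 3.29 in WT with E2 and 3.75 in WT with vehicle. At that probe set the DPM groups again lay below the WT groups.

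Hoxb3, the paralog of Hoxa3 in the Hoxb cluster, stood at 4.70 in DPM with E2, 4.91 in DPM with vehicle, 4.98 in WT with E2 and 4.73 in WT with vehicle. The levels of DPM and WT interleaved, and E2 went with a lower level in DPM (-0.22 ± 0.25) and a higher one in WT (0.26 ± 0.19). The difference between these responses was -0.47 ± 0.31 (unadjusted p = 0.174), the widest of the 49 differences computed over the 7 members.

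Hoxa4 helps to pattern the neck vertebrae. It stood at 3.76 in DPM with E2, 3.66 in DPM with vehicle, 3.76 in WT with E2 and 3.78 in WT with vehicle, and its standard errors were the smallest of the 7 members, 0.04 for the averaged comparisons. The levels of the 4 groups spanned 0.11. Its other probe set was at the floor in all groups.

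Hoxb4, a factor known for expanding blood stem cells, stood at 3.42 in DPM with E2, 3.59 in DPM with vehicle, 3.36 in WT with E2 and 3.42 in WT with vehicle. DPM with vehicle was the highest group, and DPM with E2 and WT with vehicle shared a level to the last deposited digit. Of the 32 members, 22 had such a shared level in at least 2 groups, most of them at the floor. A further probe set of Hoxb4 stood at 2.57 to 2.74, with its lowest level in DPM with vehicle.

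Hoxa5 is needed for the trachea and lung to form. It stood at 4.23 in DPM with E2, 4.19 in DPM with vehicle, 4.24 in WT with E2 and 4.33 in WT with vehicle, a span of 0.14. Hoxb5, which acts in the neural crest of the gut and in early endothelial precursors, stood at 3.76 in DPM with E2, 3.53 in DPM with vehicle, 3.45 in WT with E2 and 3.51 in WT with vehicle. Both DPM groups were above both WT groups for Hoxb5, and DPM with E2 was the highest.

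**Figure D2:**
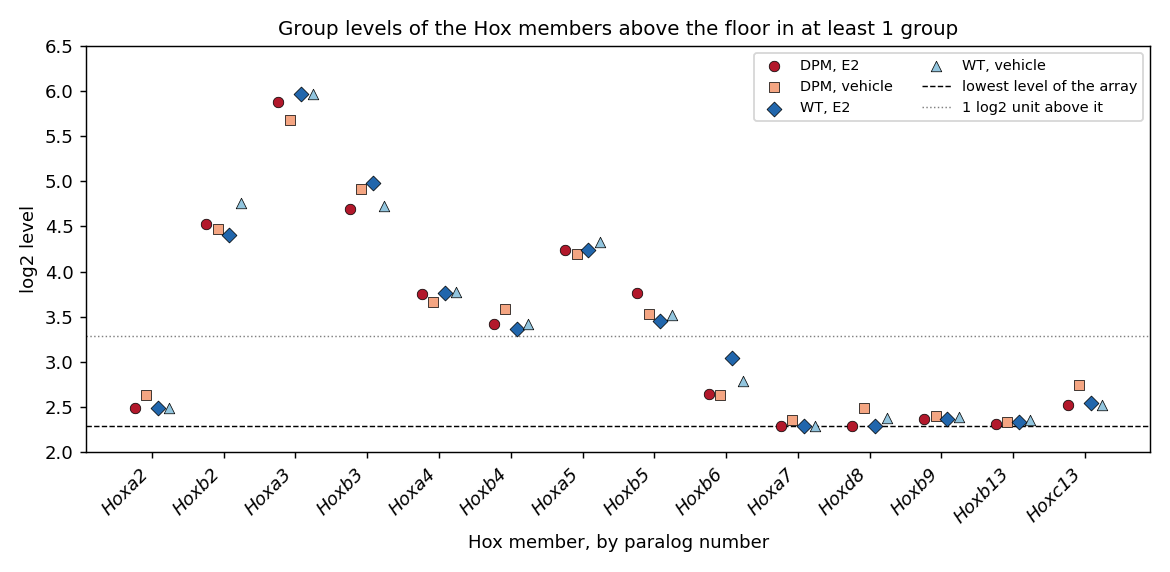
Log2 level (vertical axis) of the 14 Hox members that were above the floor in at least 1 group, in the order of their paralog numbers, with 1 point per group and no error bars because 1 level per group was deposited. The 7 members from Hoxb2 to Hoxb5 stay above the dotted line in all groups, and the widest spread of one gene's points there is the 0.35 of Hoxb2.

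The other members above the floor were close to it. Hoxb6 stood at 2.64 in DPM with E2, 2.64 in DPM with vehicle, 3.04 in WT with E2 and 2.79 in WT with vehicle, with both DPM groups below both WT groups; the averaged difference was -0.28 ± 0.20 (unadjusted p = 0.205). Hoxa2, which directs the second pharyngeal arch, had 1 level, 2.49, in 3 groups and 2.64 in DPM with vehicle. Hoxc13, known for its part in hair and nails, stood at 2.74 in DPM with vehicle and at 2.52 to 2.54 in the other groups. Hoxb9 lay between 2.37 and 2.40 in all groups.

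Some members passed the floor in part of the groups. Hoxd8 stood at 2.49 in DPM with vehicle and 2.37 in WT with vehicle and was at the floor in both E2 groups. Hoxa7 stood at 2.36 in DPM with vehicle alone, and Hoxb13 at 2.35 in WT with vehicle alone. The remaining 18 members were at the floor in all 4 groups: Hoxa9, Hoxa10, Hoxa11, Hoxa11os, Hoxa13, Hoxb1, Hoxb7, Hoxc4, Hoxc5, Hoxc6, Hoxc8, Hoxc9, Hoxd1, Hoxd9, Hoxd10, Hoxd11, Hoxd12 and Hoxd13. Over all genes, 24.3% were at the floor in all groups.

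The comparison of DPM with WT asks whether the genotypes differ in the levels of these position-marking genes. Averaged over treatments, Hoxa3 differed by -0.19 ± 0.16 (95% interval -0.58 to 0.20), Hoxb2 by -0.08 ± 0.19, Hoxa5 by -0.07 ± 0.19, Hoxa4 by -0.06 ± 0.04 and Hoxb3 by -0.05 ± 0.16. Hoxb4 differed by 0.11 ± 0.06 and Hoxb5 by 0.16 ± 0.14 in the other direction. None of the 7 had an unadjusted p under 0.05, where 5.4% of the 6875 genes at least 1 unit above the floor in 1 or more groups had it. The smallest p was that of Hoxb4, 0.124 unadjusted and 0.928 adjusted over these genes by limma's error. For Hoxa3, the member with a level of 5, the adjusted p by limma's error was 0.926 over the 5152 genes that reached that level, of which 5.78% had an unadjusted p under 0.05 and 0 an adjusted p under 0.05.

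These intervals bound the size of a genotype difference. For all 7 members the 95% interval of DPM over WT, averaged over treatments, lay between 0.669-fold (Hoxa3) and 1.41-fold (Hoxb5). It was narrowest for Hoxa4, at 0.895-fold to 1.03-fold, and for Hoxb4, at 0.972-fold to 1.20-fold. At these probe sets a change of 1.5-fold or more lay outside each interval, for Hoxa3 by a narrow margin. At the further probe set of Hoxa3 the difference was -0.35 ± 0.27, with an interval of 0.499-fold to 1.22-fold that takes in a drop of 1.5-fold. At the further probe set of Hoxb4 the difference had the other sign, -0.06 ± 0.07. The interval covers only the spread that the authors' fit measured, and for a probe set with signal near the floor a fold understates a change in RNA.

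Within a treatment the standard error had to be set at its upper bound, so a true p may be smaller than the one given. With vehicle, DPM minus WT ran from -0.29 (Hoxa3) to 0.19 (Hoxb3) over the 7 members, and 0 of 7 had an unadjusted p under 0.05 by this bound, against 1.06% of the 6875 genes and 1.07% of the 5152. With E2 the differences ran from -0.29 (Hoxb3) to 0.31 (Hoxb5), again 0 of 7, against 1.38% of the 6875 genes and 1.44% of the 5152. The sign of the difference turned between the treatments for Hoxb2 and Hoxb3.

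The genotype differences were also read along the paralog numbers. The median difference averaged over treatments was -0.06 for the 7 members, with 5 lower and 2 higher in DPM, and 0.00 over the 6875 genes. In the Hoxb cluster the differences were -0.08 at Hoxb2, -0.05 at Hoxb3, 0.11 at Hoxb4 and 0.16 at Hoxb5. The further probe set of Hoxb4 gave -0.06, and the next gene Hoxb6, which lies nearer the floor, gave -0.28, so neither follows that rise. In the Hoxa cluster the differences were -0.19 at Hoxa3, -0.06 at Hoxa4 and -0.07 at Hoxa5. Spearman's rho between paralog number and difference across the 7 genes, which share arrays and are not independent, was 0.55 averaged over treatments, 0.26 with vehicle and 0.26 with E2, and each averaged difference lay within 2 of its standard errors. Paralog numbers from 9 upwards were absent above 3.29 in DPM as in WT, with 0 of 14 members in each group.

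**Figure D3:**
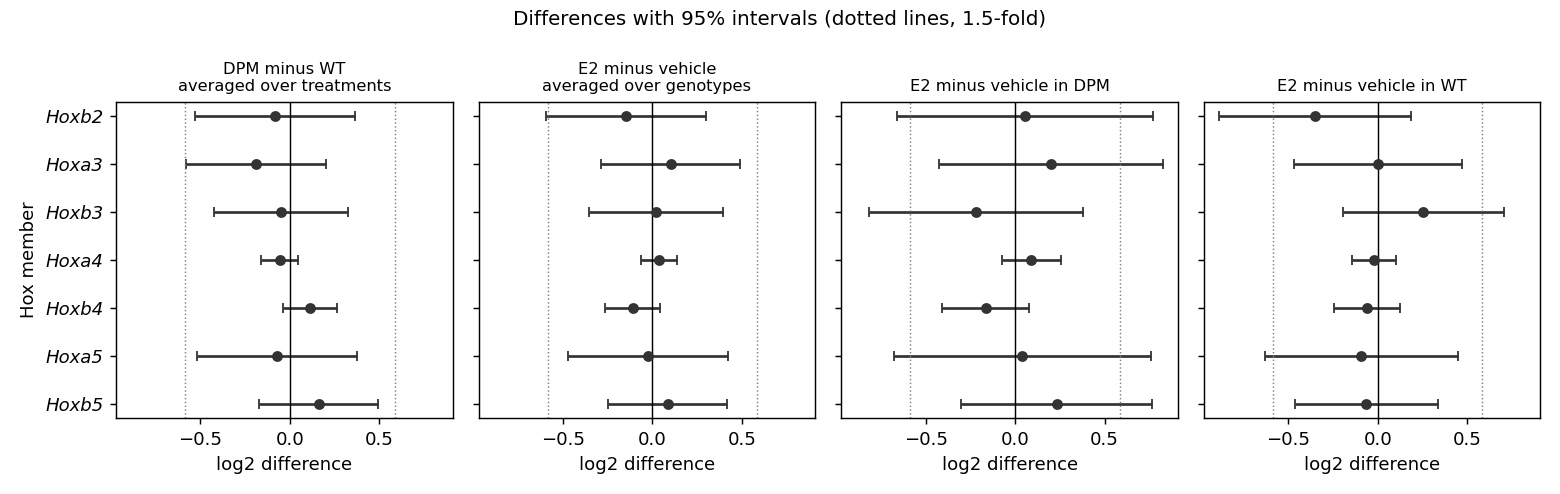
Log2 differences (horizontal axis) of the 7 Hox members at least 1 unit above the floor, with 95% intervals, for DPM minus WT, for E2 minus vehicle over both genotypes and for E2 minus vehicle in DPM and in WT. Every interval includes 0, and in the DPM minus WT panel all intervals end inside the dotted lines at 1.5-fold.

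Treatment with E2 for 4 h asks whether the hormone changes Hox levels. In DPM, 5 of the 7 members were higher and 2 lower with E2, between -0.22 (Hoxb3) and 0.23 (Hoxb5), and the deposited p was under 0.05 for 0 of 7, against 4.83% of the 6875 genes. When differences were centred on the median of all genes kept, 0.08, Hoxb4 in DPM came to -0.25 (unadjusted p = 0.0482). Without centring, the further probe set of Hoxb4 had the other sign in DPM, 0.12 (deposited unadjusted p = 0.321). The mean of its probe sets gave -0.021. In WT, 2 were higher and 5 lower, between -0.35 (Hoxb2) and 0.26 (Hoxb3), with 0 of 7 against 6.24%. Hoxa3 differed by 0.20 ± 0.26 in DPM (adjusted p = 0.926) and by 0.00 ± 0.19 in WT (adjusted p = 1), where 5.2% of the 5152 genes had an unadjusted p under 0.05 in DPM and 6.79% in WT. An adjusted p under 0.05 was found for 0.0194% of them, or 1 gene, in DPM and for 0 in WT.

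Averaged over both genotypes, the E2 difference ran from -0.15 ± 0.19 for Hoxb2 to 0.10 ± 0.16 for Hoxa3, and 0 of 7 had an unadjusted p under 0.05, against 6.97% of the 6875 genes, 7.71% of the 5152 and, at an adjusted p under 0.05, 0.0388% of the 5152. The difference between the responses of DPM and WT ran from -0.47 ± 0.31 for Hoxb3 to 0.40 ± 0.37 for Hoxb2, with 0 of 7, against 4.13% of the 6875 genes, 4.19% of the 5152 and, at an adjusted p under 0.05, 0.0194% of the 5152. The 2 responses share no sample, but this difference uses all 4 groups. No member differed by 1.5-fold or more in any of the 7 comparisons; the widest fold was 1.39, for the difference between the responses of Hoxb3. Of the 6875 genes, 1.38% had at least 1.5-fold in DPM over WT averaged over treatments, 3.56% with vehicle and 2.4% with E2. For E2 over vehicle the share was 1.38% averaged over genotypes, 4.35% in DPM and 2.37% in WT, and for the difference between the responses 7.8%.

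The probe set shared by Hoxb7 and Hoxb8 was the one Hox probe set with a deposited p under 0.05. It stood at 2.29 in DPM with E2, 2.58 in DPM with vehicle, 2.34 in WT with E2 and 2.29 in WT with vehicle. In the authors' deposited table its E2 difference in DPM was -0.29 (unadjusted p = 0.0243) and the difference between the responses -0.34 (unadjusted p = 0.0324). It was above the floor in DPM with vehicle alone, by less than 0.3, and the single-gene probe set of Hoxb7 was at the floor in all groups.

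Genes of the TALE homeodomain class, to which the Pbx, Meis and Pknox partners of Hox proteins belong, were measured beside the Hox genes. Of 10 genes listed, 9 had a probe set of their own, and Tgif1, Pbx3, Meis2 and Meis1 reached a level of 5. Tgif1 is a TALE gene outside the Pbx, Meis and Pknox families and is not counted as a Hox partner here. Pbx3 stood at 6.40 in DPM with E2, 5.97 in DPM with vehicle, 5.98 in WT with E2 and 5.71 in WT with vehicle, and its genotype difference averaged over treatments was 0.34 ± 0.20 (adjusted p = 0.897). Meis2 stood at 5.55 in DPM with E2, 5.52 in DPM with vehicle, 5.13 in WT with E2 and 5.57 in WT with vehicle. WT with E2 was the low group for Meis2, with an E2 difference in WT of -0.45 ± 0.15 (unadjusted p = 0.0243, adjusted p = 0.632). Meis1 lay between 4.90 and 5.02 and Tgif1 between 8.67 and 8.90. Of the 4 genes, 0 had an adjusted p under 0.05 by limma's error in any comparison. Meis2 in WT was the one with an unadjusted p under 0.05, where 6.79% of the 5152 genes had one in WT. The median genotype difference of the 4, Tgif1 included, was 0.14 averaged over treatments, against 0.00 over the 5152 genes.

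Of 25 genes listed as regulators of Hox clusters, 22 had a probe set of their own and 8 reached a level of 5. The caudal factors Cdx1, Cdx2 and Cdx4, which switch on posterior Hox genes in the embryo, were at the floor in all groups. Ctcf, which encodes an insulator protein that divides Hox clusters into domains, stood at 6.20 in DPM with E2, 5.77 in DPM with vehicle, 5.85 in WT with E2 and 5.85 in WT with vehicle. DPM with E2 was the high group, with an E2 difference in DPM of 0.42 ± 0.10 (unadjusted p = 0.0039, adjusted p = 0.688). Kdm6a encodes a histone demethylase that removes the trimethyl mark Polycomb places on silent Hox genes. It stood at 6.68 in DPM with E2, 7.12 in DPM with vehicle, 6.68 in WT with E2 and 6.77 in WT with vehicle, with an E2 difference in DPM of -0.43 ± 0.15 (unadjusted p = 0.0265, adjusted p = 0.916). These were the 2 of the 8 with an unadjusted p under 0.05 in DPM, where 5.2% of the 5152 genes had one, and both were named after their values were seen. In WT and for genotype averaged over treatments 0 of 8 had one by limma's error, against 6.79% and 5.78% of the 5152. Of the 8, 0 had an adjusted p under 0.05 in any comparison. The median genotype difference of the 8 was 0.09.

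Aldh1a2 makes retinoic acid, a direct inducer of forward Hox genes, and was named after its values were seen. It stood at 3.34 in DPM with E2, 2.68 in DPM with vehicle, 2.66 in WT with E2 and 2.62 in WT with vehicle. DPM with E2 was high and the other groups lay close together, with an E2 difference in DPM of 0.66 ± 0.07 (adjusted p = 0.13 over 6875 genes). Averaged over treatments, DPM minus WT was 0.37 ± 0.04 (unadjusted p = 0.000108, adjusted p = 0.362 over 6875 genes). Aldh1a2 is also a gene of mesothelium, the lining of the body cavities. The mesothelial marker Krt19 stood at 5.09 in DPM with E2, 4.09 in DPM with vehicle, 3.67 in WT with E2 and 3.25 in WT with vehicle, and its averaged genotype difference was 1.13 ± 0.40 (adjusted p = 0.789). The defining mesothelial gene Wt1 was within 0.07 of the floor in all groups. The mean level of 4 mesothelial markers was 4.66 in DPM with E2, 3.93 in DPM with vehicle, 3.86 in WT with E2 and 3.20 in WT with vehicle, and its part in the Aldh1a2 values was not tested.

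Factors that mark the heart and outflow tract or the hind limb were also listed. Nkx2-5, Tbx5, Tbx20 and Hand2 were at the floor even in DPM with vehicle, where the heart muscle genes Myh6 and Myl7 stood at 7.19 and 7.21. A factor at the floor therefore does not show that heart tissue was absent. Of 16 measured heart and outflow factors, 10 were at the floor in all groups, among them Nkx2-5, Tbx5, Tbx20, Hand1 and Hand2, and 4 reached a level of 5: Gata6, Mef2c, Irx3 and Tbx18. Tbx18, a factor of the epicardium and of mural cells, stood at 5.26 in DPM with E2, 5.09 in DPM with vehicle, 4.65 in WT with E2 and 4.71 in WT with vehicle. Both DPM groups were above both WT groups, with an averaged difference of 0.49 ± 0.17 (unadjusted p = 0.024, adjusted p = 0.788). Tbx18 was the 1 of the 4 with an unadjusted p under 0.05, where 5.78% of the 5152 genes had one for this comparison. Of 10 measured caudal and limb factors, 6 were at the floor, among them the hind limb factor Tbx4, and Prrx1 reached a level of 5 with no unadjusted p under 0.05.

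Among 6 endothelial markers, Emcn, which encodes a surface sialomucin of endothelium, stood at 5.58 in DPM with E2, 4.998 in DPM with vehicle, 4.94 in WT with E2 and 4.79 in WT with vehicle. Its averaged genotype difference was 0.42 ± 0.14 (unadjusted p = 0.0213, adjusted p = 0.784). The other 5 had no unadjusted p under 0.05 for genotype averaged over treatments, where 5.78% of the 5152 genes had one.

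Markers of tissues that border the upper aorta were uneven between the groups. The mean level of 9 heart muscle genes was 3.42 in DPM with E2, 6.46 in DPM with vehicle, 3.04 in WT with E2 and 3.33 in WT with vehicle. Among them Nppa, for atrial natriuretic peptide, and Tnnt2, for cardiac troponin T, had an unadjusted p under 0.05 for DPM minus WT averaged over treatments. Of the 5152 genes, 5.78% had one. The differences were 2.29 ± 0.87 (adjusted p = 0.851) for Nppa and 1.90 ± 0.67 (adjusted p = 0.789) for Tnnt2. Nppa reached a level of 5 in DPM with vehicle alone, at 6.81 against 2.30 to 2.38 in the other groups. Its averaged difference therefore rests on that group. With E2 the DPM minus WT difference was 0.08 for Nppa and 0.74 for Tnnt2. The mean of 8 lung and airway genes was 3.01 in DPM with E2, 4.11 in DPM with vehicle, 2.32 in WT with E2 and 2.32 in WT with vehicle. The airway gene Scgb1a1 stood at 4.61 in DPM with E2, 6.43 in DPM with vehicle, 2.31 in WT with E2 and 2.32 in WT with vehicle. Its DPM minus WT difference averaged over treatments was 3.20 ± 2.09 (unadjusted p = 0.173 by limma's error). Of the 4 lung and airway genes that reached a level of 5, all in DPM with vehicle alone, 0 had an unadjusted p under 0.05 in any comparison. The alveolar gene Sftpb lay at the floor in all groups. Of the other alveolar genes listed, Sftpa1 was above it in DPM with vehicle alone, at 2.41, and Sftpc in WT with E2 alone, at 2.36. DPM with vehicle, the highest group for both lists, was also the highest for Hoxb4, Hoxa2, Hoxa7, Hoxd8, Hoxb9, Hoxc13 and the probe set of Hoxb7 and Hoxb8. It was the lowest group for Hoxa3, Hoxa4, Hoxa5 and Hoxb6. The further probe sets of Hoxb4 and Hoxa3 ranked the groups otherwise. For Hoxb4 that probe set was lowest in DPM with vehicle, at 2.57 against 2.65 to 2.74. For Hoxa3 it was lowest in DPM with E2, at 3.157 against 3.173 in DPM with vehicle. The part of heart and airway tissue in these Hox values was not tested. In the comparison of DPM with WT under E2, which does not use DPM with vehicle, Hoxb4 differed by 0.06 and Hoxa3 by -0.09. These differences, and those of Hoxa4, Hoxa5 and Hoxb2, were smaller than with vehicle. They were larger than with vehicle for Hoxb5 (0.31 against 0.01), Hoxb3 (-0.29 against 0.19) and Hoxb6 (-0.40 against -0.16). Scgb1a1 was higher in DPM than in WT under E2 too.

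Markers of organs beside the abdominal aorta were near the floor. The kidney list had a mean of 2.29 to 2.32 over 4 genes and the liver list 2.29 to 2.31 over 3 genes in the 4 groups. Of 4 adrenal cortex genes, 3 were at the floor in all groups, among them Cyp11a1, and Star, which other tissues express too, stood between 4.10 and 4.44. Brown fat genes, which are high in the fat around the thoracic aorta, had means of 8.34 in DPM with E2, 7.90 in DPM with vehicle, 8.12 in WT with E2 and 8.13 in WT with vehicle, and 0 of the 3 that reached a level of 5 had an unadjusted p under 0.05 in any comparison. In pooled tissue, fewer cells of a type and less RNA per cell cannot be told apart.

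**Figure D4:**
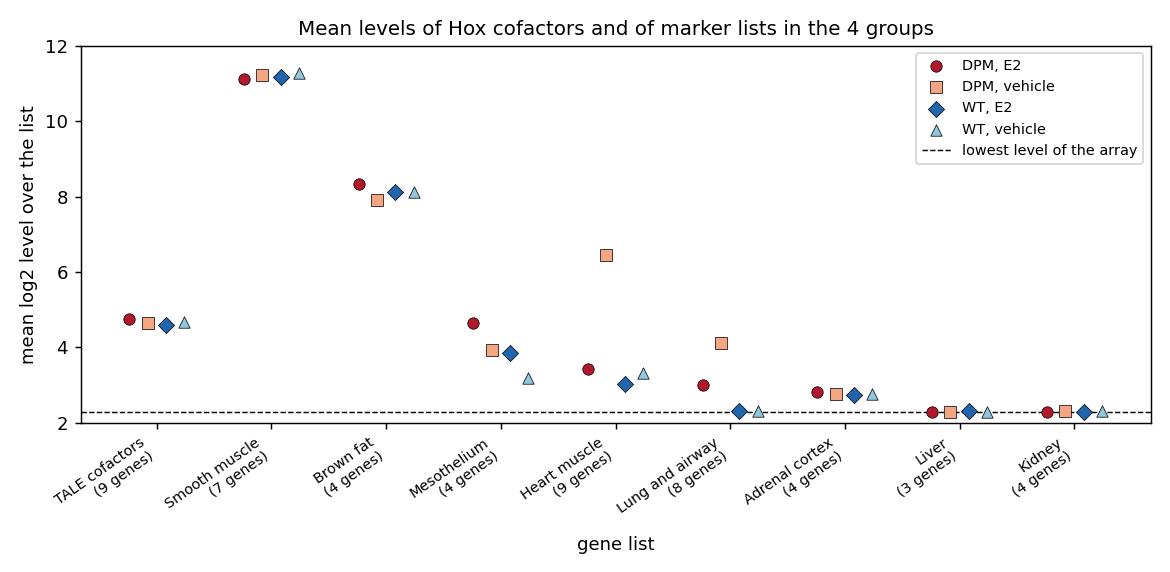
Mean log2 level (vertical axis) over the measured genes of each list (horizontal axis), with 1 point per group and the floor as a dashed line. The TALE list, which includes Tgif1, and the smooth muscle and brown fat lists stand at like heights in the 4 groups. Heart muscle and airway genes are highest in DPM with vehicle, and the liver and kidney lists lie at the floor.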

How the data were processed

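The authors deposited, per probe set, 4 group levels and 3 differences on a log2 scale and the unadjusted p-value of each difference, per the file headers; GCRMA and limma are named, without a version or role, per the submitters' processing notes. Levels in both files were identical. Symbols came from the array annotation, updated by Entrez identifier through RefSeq (GRCm38.p6). Genes that reached a level of 5 in any group (5152) entered the Benjamini-Hochberg adjustment, threshold 0.05; Hoxa3 was the 1 Hox member among them, so the lower limit of 1 unit above the floor (6875 genes) was added after the data were seen.

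Standard errors were recovered at 6.44 total degrees of freedom, the value at which the 3 contrasts have errors in a constant ratio across 10631 probe sets. The squared errors of both responses add to that of their difference (2.77 against 2.77, in units of the WT response), as independent groups require; the error of the WT response was smaller than that of DPM by a ratio of 1.33, for a reason not given in the sources used here. Averages over treatments or genotypes have 0.5 times the error of that difference; within a treatment the full error served as an upper bound. The steps were tested on simulated data without a floor and with equal spread in both genotypes. That test does not cover levels near the floor or the ratio of 1.33. The number of arrays limits the precision. Python 3.11.15, numpy 2.4.6, pandas 2.3.3 and scipy 1.17.1 were used.

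The members and lists were chosen with earlier results of these data known. All members are named, with the 4 levels in full where a level reached 5, and for the other members above the floor after their values were seen. Of other lists, genes with a level of at least 5 and an unadjusted p under 0.05 for genotype were named. So were the TALE genes with a level of at least 5. Ctcf, Kdm6a and single markers were named after their values were seen.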

Additional observations from a re-analysis of the deposited data

Results flagged for a closer look

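The response to E2 differed between DPM and WT at an unadjusted p under 0.05, by the test of the difference itself, for 3 flagged probe sets. Of all genes, 4.13% of the 6875 and 4.19% of the 5152 had one. By the same test so did 2 marker genes, Nppa (-4.42, unadjusted p = 0.0407) and the endothelial Icam2 (-0.69, unadjusted p = 0.0176). Both had an adjusted p of 0.989, and Nppa was high in DPM with vehicle alone. The probe set shared by Hoxb7 and Hoxb8 differed by -0.34 (unadjusted p = 0.0324), with the high value in DPM with vehicle, 0.29 above the floor. Ctcf differed by 0.42 ± 0.12 (unadjusted p = 0.0119, adjusted p = 0.989). Aldh1a2 differed by 0.63 ± 0.09 (adjusted p = 0.413 over 6875 genes), at levels under 3.4 where signal over background is low.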

How the results depend on the processing

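Which members count as well above the floor depended on the limit: 1 at a level of 5, 4 at a level of 4, 0 at a level of 6, 7 at 1 log2 unit above the lowest level and 0 at a level of 5 when all probe sets of a gene were averaged. The 7 members at 1 unit above the floor in all groups became 5 with averaged probe sets, and stayed at 7 quantile normalized, with every probe set on its own and without the DPM vehicle group. The count of members with an unadjusted p under 0.05 was 0 in all 7 comparisons under each filter tried, with 1, 7 or 32 members tested; centred, quantile normalized and, for the 4 comparisons it applied to, at 5 degrees of freedom, the count covered Hoxa3 alone and was 0 too. Of 126 tested values of the 7 members recomputed by centring, quantile normalization or 5 degrees of freedom, 118 kept their direction and side of the threshold, 1 crossed it (Hoxb4 in DPM, centred, -0.25) and 7 turned direction, none of them with an unadjusted p under 0.05. Of 21 values with averaged probe sets, which have no test, 18 kept their direction and 3 turned. Centred, the E2 difference in WT became -0.0063 for Hoxa3, that in DPM -0.042 for Hoxa5 and -0.028 for Hoxb2, and that over both genotypes -0.0046 for Hoxa4 and -0.022 for Hoxb3. Quantile normalized, it became -0.00071 for Hoxa3 in WT and -0.014 for Hoxb3 over both genotypes. With averaged probe sets it became -0.23 for Hoxa3 and 0.017 for Hoxb4 in WT and -0.070 for Hoxa3 over both genotypes. No paired analysis was possible because 1 level per group was available, and for the same reason no replicate could be left out. For members near the floor, low signal over background limits what can be seen.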
